A study of Schizosaccharomyces pombe with 24 samples.

Results

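Divergent gene pairs are neighbouring protein-coding genes that are transcribed away from each other, so that the interval between their starts holds the promoters of both. They were taken from the endogenous-site annotation, a gene map of the fission yeast Schizosaccharomyces pombe. All 5113 genes with an annotated mRNA on chromosomes I, II and III were sorted by start, and each adjacent pair with the left gene on the minus strand and the right gene on the plus strand was kept. This gave 1396 divergent pairs, 27.3% of 5110 adjacent pairs. The others were 2320 tandem pairs, on the same strand, and 1394 convergent pairs, facing each other with their 3' ends.

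The annotation belongs to a chromatin immunoprecipitation sequencing (ChIP-seq) series of 24 libraries, which profiled di- and trimethylation of histone H3 lysine 9, the marks of fission yeast heterochromatin, with a separate antibody each. In all strains a reporter of 10 tet operators and ade6+ had been inserted, in place of ura4 (the ectopic site, 14 libraries) or in place of cenH in the mating-type region (the endogenous site, 10 libraries). The genotypes at the ectopic site were wild type, clr4D, swi6D, swi6D mst2D, swi6D set1D, swi6D mst2D set1D and mst2D set1D, and at the endogenous site the same without clr4D and mst2D set1D. Cells grew at 32 °C in all groups, per the labels. With each antibody, 1 library was made per genotype and site. No label gives the number of independent strains behind a genotype. No methylation level of any library was analysed here, so no genotype is compared. Each value below is a count or a length read from an annotation and has no replicate error and no read depth. Intervals beside a share are 95% Wilson intervals and those beside a median are 95% order-statistic intervals. They show only how many pairs or genes stand behind the value.

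A promoter is the stretch before a gene where transcription factors and RNA polymerase assemble. When neighbouring genes diverge, their promoters lie back to back, and where the gap is short the same DNA elements may serve both genes. Histone genes and the galactose genes of budding yeast are textbook cases. Between its start and its first codon a gene has a 5' untranslated part, which belongs to the mRNA and lies outside the gap as measured here. Fission yeast also has many annotated non-coding RNA genes, named SPNCRNA with a number, and many of them lie between protein-coding genes.

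The sequences of the 3 gaps between histone H3 and H4 genes are shown first because all 3 carried the same element. Core histones are the proteins around which DNA is wound. Each window reads 5' to 3' on the strand that has AACCCTAACCCT, the doubled form of the AACCCT box, a histone promoter element of fission yeast, in capitals.
hhf1-hht1: ctgcatcaaAACCCTAACCCTgcttttgat
hhf2-hht2: gtcaatcacAACCCTAACCCTgatttaaga
hht3-hhf3: tttgatcacAACCCTAACCCTttaattaaa
The windows are chrI:4699643-4699672 (plus strand), chrII:1365051-1365080 (minus) and chrII:3529618-3529647 (plus) of the assembly ASM294v3, from RefSeq. Before the repeat all 3 windows had ATCA and then a base that was C in 2 of the 3 and A in hhf1-hht1. Of the 30 aligned positions, 18 were identical in all windows. They include the 12 bases of the repeat itself, which are identical by construction because the windows were aligned on it. The doubled box lay in 10 of 1259 divergent gaps searched, 6 of 2155 tandem gaps and 1 of 546 convergent gaps. The other 7 divergent gaps with it were acp2-bdf2, ssa1-upf3, eft201-SPAC513.02, ppc89-pcc1, tif51-mug56, SPBC713.14c-erg1 and lcl3-SPBC19F8.05, which hold no gene of the histone list and were 934 to 2405 bases long.

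Ribosomal protein genes are the second set shown, because 4 divergent pairs had a cytoplasmic ribosomal protein gene on each side. The capitals mark CAGTCAC, the core of the HomolD box, the element that takes the place of a TATA box in fission yeast ribosomal protein promoters. This core was chosen after the values were seen, since the longer CAGTCACA searched first is absent from the gap of rps1602 and rpl13.
rps1602-rpl13: gcgaaaaaaagCAGTCACgtttgtgttgac
rpl701-rps1402: aaactaaaggaaCAGTCACaaatttgtgtc
rpl35-rpl902, plus strand: ccaaagaaaagCAGTCACactagtgcaagt
rpl35-rpl902, minus strand: attcataaaaaaCAGTCACgaaagtttcga
rps2-rps20, plus strand: tatgtttggaaCAGTCACtttttattagca
rps2-rps20, minus strand: aatgagcccaaaCAGTCACactcattatag
These are chrI:1711120-1711149 (plus), chrII:1792294-1792323 (minus), chrIII:89621-89650, chrIII:89683-89712, chrIII:2096462-2096491 and chrIII:2096065-2096094 of ASM294v3. In rpl35-rpl902 and rps2-rps20 there was a core on each strand. In rps1602-rpl13 and rpl701-rps1402 there was a core on 1 strand.

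The shortest gaps and the shared start codons are shown next, to give the scale at which these genes meet. In the windows below the capitals are the whole gap, and the bases on both sides are transcribed parts of the neighbouring genes.
ect1-vps29: tttggtatacgttACTTgacatgtgcacac
tae1-tif45: gtccattctttctAGCCagaaccatgcaga
smc5-dad3: taggagtttgctGAGAGcaaagtgcttatg
rad13-SPBC3E7.09: tgtgtggcacttGACTTgagccaattacca
They lie at chrI:3727351-3727380, chrI:3528136-3528165, chrI:5229782-5229811 and chrII:2676558-2676587 of ASM294v3 (plus strand). In 3 other pairs the coding sequences themselves met, and in these windows the capitals are the 4 bases that spell ATG on both strands, the start codons of both genes.
dam1-csr101: tctggtatttctcCATGttttcgcgacttt
coa1-pac3: ttttagaagatatCATGtttcctaagataa
gpi10-coq10: aaaaccaaattctCATGgcttttcgatgta
These are chrI:3106826-3106855, chrII:1921497-1921526 and chrIII:881152-881181 of ASM294v3 (plus strand). The start codons of dam1 (a kinetochore DASH complex subunit) and csr101 (a Sec14 family protein) thus shared 2 bases, as did those of coa1 and pac3 and those of gpi10 and coq10.

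Divergent genes stood farther apart than their tandem and convergent counterparts. The median gap of the 1396 divergent pairs was 712 bases (643 to 749), against 319 bases (305 to 335) for tandem pairs. The median of convergent pairs was -47 bases (-61 to -37), where a value below 0 is an overlap. A gap under 500 bases, overlaps included, was found in 559 divergent pairs (40.0%, 37.5 to 42.6%). The shares were 66.8% of tandem and 90.0% of convergent pairs. Annotated overlap was seen in 131 divergent pairs (9.38%), 154 tandem pairs (6.64%) and 836 convergent pairs (60.0%). Neighbouring pairs share genes, so these shares are set side by side with no test.

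**Figure D1:**
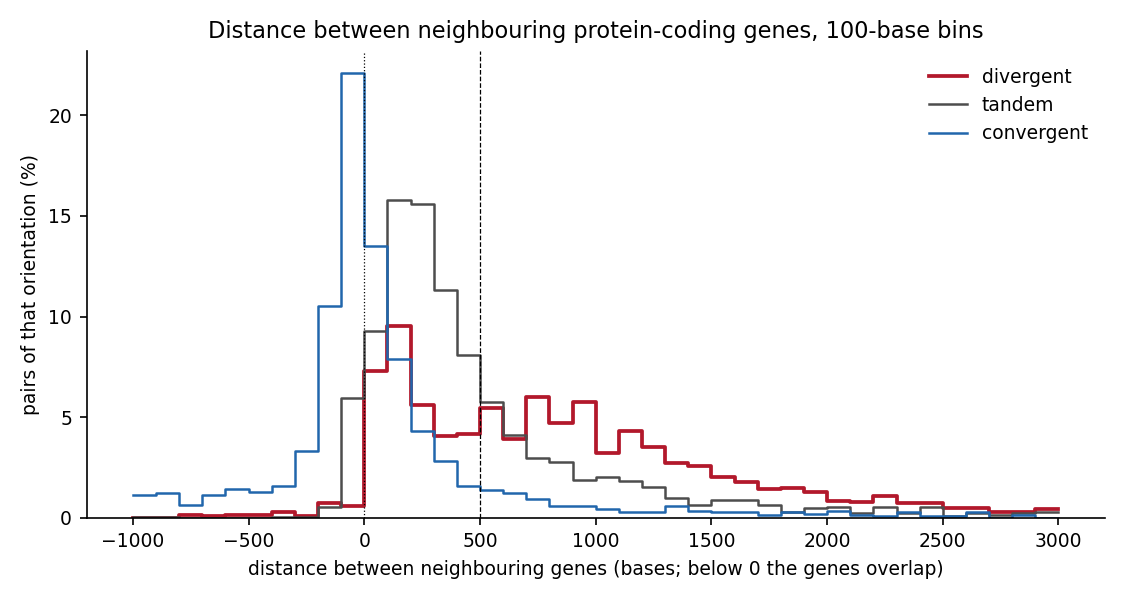
Distance between neighbouring protein-coding genes in 100-base bins (x axis, bases, drawn from -1000 to 3000) against the percent of pairs of each orientation (y axis), with lines at 0 and at 500 bases. The divergent line is highest at 100 to 199 bases and runs above the tandem and convergent lines through most bins from 700 to 2000 bases, and the convergent line is highest just below 0.

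The 1265 divergent pairs with a true gap had a median of 791 bases, and the middle of the distribution ran from 304 to 1309 bases. Of these gaps 428 (33.8%) were under 500 bases. The 100-base bin with the most gaps was 100 to 199 bases, with 133, followed by 0 to 99 bases with 102. Only 57 gaps fell at 300 to 399 bases and 58 at 400 to 499, while 84 fell at 700 to 799 bases. The counts therefore had a peak under 200 bases and a broad second rise from 500 to 1000 bases, and 136 gaps were over 2000 bases. The limit of 500 bases cut between atp4-noc4 (499 bases), an ATP synthase subunit beside a ribosome biogenesis gene, and lsm6-sec67 (501 bases), a U6 snRNA-binding protein beside a translocation subunit.

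At the short end, 33 pairs had at most 30 bases between their starts. The gap was 4 bases in ect1-vps29, a phosphatidylethanolamine synthesis enzyme beside a retromer subunit, and in tae1-tif45, a methyltransferase beside the cap-binding factor eIF4E. It was 5 bases in smc5-dad3, an Smc5-6 complex ATPase beside a DASH complex subunit, and in rad13-SPBC3E7.09, a DNA repair nuclease beside a Sad1-UNC-like protein. It was 7 bases in gpn2-jac1, in ubc11-chk1, which pairs an E2 ubiquitin-conjugating enzyme with a DNA damage checkpoint kinase, and in tfa2-SPCC1672.09. A short gap did not mean that the coding sequences were close. In ubc11-chk1 they were 282 bases apart, because 51 bases of ubc11 and 224 bases of chk1 were untranslated. In tae1-tif45 they were 17 bases apart, and this was the lowest coding distance of the pairs with a gap.

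At the long end stood rpp202-emc3, with 16390 bases on chromosome II (2128468 to 2144857 in the endogenous-site annotation). The positions of the inserted reporter and of the silent mating-type genes mat2-Pc and mat3 fall inside this gap. Both mating-type genes are filed under a separate mating-type sequence and have no annotated mRNA, so they did not enter the sorting. In ASM294v3 the same stretch has the divergent pair mat3-Mi and mat3-Mc, 134 bases apart. The next longest were SPBCPT2R1.04c-tlh2, with 12283 bases beside a subtelomeric helicase gene, zfs1-SPBPB7E8.01 with 6775, gsf2-SPCC1795.12c with 6764 and SPBC1348.10c-SPBC1348.12 with 6739 bases. Chromosome III had the longest typical gap. Its 226 pairs with a gap had a median of 941 bases (834 to 1116), against 732 bases (649 to 792) in 572 pairs of chromosome I and 787 bases (731 to 851) in 467 pairs of chromosome II. The intervals of chromosomes II and III overlapped, and those of I and III did not.

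Overlapping pairs were of 3 kinds. In 89 of the 131 the plus-strand gene lay wholly inside the minus-strand gene. The stretch between the starts of such a pair had a median of 2877 bases and is at least as long as the inner gene. This stretch was longest in fab1-prp17, a phosphatidylinositol phosphate kinase over a splicing factor, at 7864 bases. It was 6266 bases in wdr70-tit1 and 6184 bases in sec31-mde3. In all 89 nested pairs the first codon of the plus-strand gene lay left of that of the minus-strand gene. From their first codons the genes were thus read toward each other. In 57 of them the inner gene lay past the outer coding sequence altogether, inside an untranslated part. A further 13 pairs overlapped with the coding order reversed, judged by the midpoints of the coding sequences. These 102 pairs (7.31%) met the sorting rule but were counted as not head to head, the nested pairs without a look at midpoints. The other 1294 pairs (92.7%) were counted as head to head by coding order.

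The other 29 overlapping pairs kept their coding order and met at their 5' parts. Their median overlap was 152 bases, and the coding sequences were apart in 25 of them. Those of mug155 and SPAC27E2.12 overlapped by 337 bases, and those of the other 3 pairs by 2 bases. The overlap was 1 base in ssb1-mik1, a replication factor A subunit beside a kinase that inhibits mitotic entry, in stt4-ubp10 and in urh1-mal1. It was 178 bases in dam1-csr101, 310 in coa1-pac3 and 302 in gpi10-coq10, the 3 pairs whose start codons share bases.

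Between the first codons the pairs were farther apart than between the gene starts. The coding distance of the 1265 pairs with a gap had a median of 1043 bases and quartiles of 615 and 1681 bases, and 238 pairs (18.8%) were under 500 bases. The median of the transcribed bases that lay between a pair's coding starts, outside the gap, was 251.

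The median 5' untranslated part was longer in the genes of divergent pairs with a gap than in the genes of no divergent pair. Of the 2530 genes in pairs with a gap, 2236 (88.4%) had an annotated 5' untranslated part, with a median of 113 bases (106 to 121) and quartiles of 46 and 232 bases. Of the 2321 protein-coding genes in no divergent pair 2064 (88.9%) had one, with a median of 86 bases (80 to 90). Lengths over 1000 bases were found in 34 and 29 genes. The longest sums over a pair were 3073 bases in zfs1-SPBPB7E8.01, of which 2778 belonged to zfs1, a CCCH zinc finger gene, and 2672 bases in ppk33-hmg1, where 1901 and 771 bases flanked a gap of 73 bases. They were followed by SPAC57A7.05-pabp, with 2350 bases, of which 79 belonged to the poly(A)-binding protein gene.

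The partners of a pair were unequal in this length. In the 1003 pairs where both genes had a 5' untranslated part, the median of the longer part was 204 bases and that of the shorter part 59 bases. The longer was more than 5 times the shorter in 286 pairs (28.5%). Across these pairs the Spearman correlation between the partners' lengths was 0.12, and that between the gap and the summed length was 0.17. Both are descriptions over pairs that share chromosomes and annotators. The median per gene was 108 bases in gaps of 1 to 250 bases, 104.5 in 251 to 500, 99.5 in 501 to 1000 and 95 in 1001 to 1500 bases. It was 132.5 bases in gaps of 1501 to 2000, 224.5 in 2001 to 3000 and 350 over 3000 bases. The length was thus flat up to 1500 bases and higher in the longest gaps. The 32 pairs with no annotated 5' untranslated part had a median gap of 1478.5 bases (974 to 3050). The median was 850 bases (739 to 1012) in 230 pairs where 1 gene had one and 752 bases (718 to 802) where both did. An absent untranslated part counts bases of unknown transcription into the gap.

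**Figure D2:**
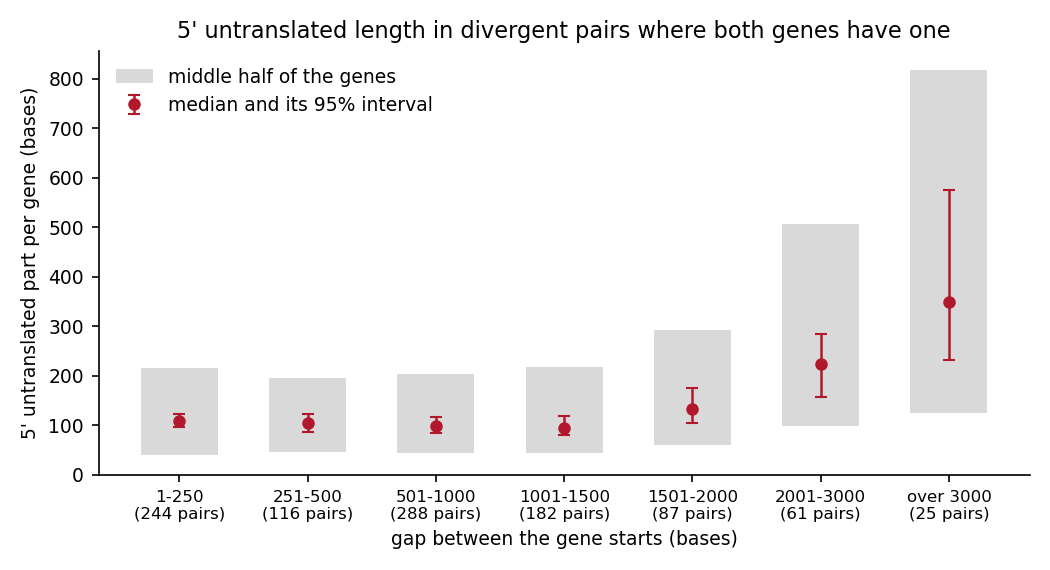
Annotated 5' untranslated bases per gene (y axis) by the gap between the gene starts (x axis, bases) in the 1003 pairs where both genes have such a part. Points are medians with 95% intervals and grey bars run from the lower to the upper quartile; the medians stay between 95 and 108 bases up to gaps of 1500 bases and reach 350 bases in the 25 pairs over 3000 bases.

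Non-coding genes filled much of the longer gaps. Of the 7208 SPNCRNA genes, 806 (11.2%) lay wholly inside a divergent gap. Such a gene was found in 474 of the 1265 gaps (37.5%, 34.8 to 40.2%), and in 15.4% of the gaps of the ectopic-site annotation, the other deposited gene map. The median length of the 806 genes was 455 bases, 429 were on the plus and 377 on the minus strand, and 436 (54.1%) were on the strand opposite to that of the nearer protein-coding gene. A gap held 1 of them in 269 cases, 2 in 136 and 3 or more in the others. The most were 8, in wis1-SPBC409.08, beside the MAP kinase kinase of the stress pathway, in a gap of 4610 bases. The gap of rtn1-but2, beside a reticulon gene, held 7 in 5710 bases, and 6 gaps held 6 each.

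The share followed the gap length closely. A gene had to fit whole into the gap to count, and the lower quartile of length of the 806 genes inside gaps was 298 bases. No SPNCRNA gene lay inside any of the 279 gaps of up to 250 bases, where 17 gaps were spanned whole by such a gene. At least 1 lay inside 3 of 149 gaps of 251 to 500 bases (2.01%), 31.3% of gaps of 501 to 1000 bases and 63.6% of gaps of 1001 to 1500 bases. The shares were 81.2%, 87.2% and 94.0% in the next classes, up to 2000, up to 3000 and over 3000 bases. The shortest gap with one was 378 bases. Counting any SPNCRNA gene that touched the gap, 918 gaps (72.6%) had one, and 55.4% of all gap bases were covered. By this count 74 of the 279 gaps of up to 250 bases (26.5%) had one, and 59.1% of gaps of 251 to 500 bases. No gene of any kind reached into 325 gaps (25.7%), whose median length was 190 bases.

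Among tandem pairs 18.5% of the gaps, and among convergent pairs 13.0%, held an SPNCRNA gene, but their gaps were shorter. Within a length class the orientations were closer. In gaps of 501 to 1000 bases the shares were 31.3% (divergent, 26.7 to 36.3%), 27.3% (tandem, 23.2 to 31.9%) and 33.3% (convergent, 23.2 to 45.3%). In gaps of 1001 to 1500 bases they were 63.6% (57.2 to 69.6%), 56.2% (48.5 to 63.6%) and 46.2% (28.8 to 64.5%). The intervals overlapped in both classes.

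**Figure D3:**
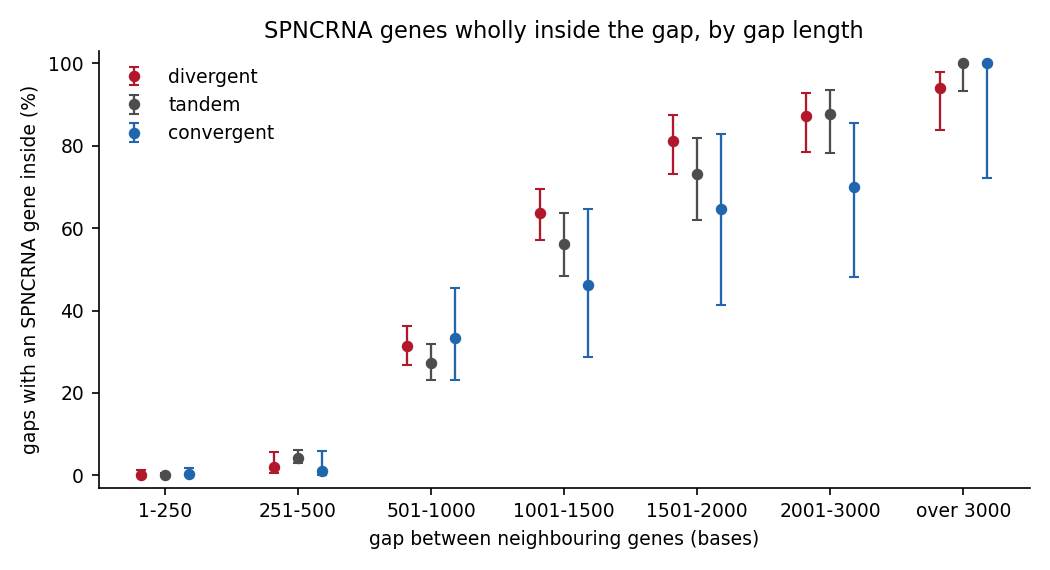
Percent of gaps that hold at least 1 whole SPNCRNA gene (y axis) by gap length (x axis, bases) for divergent, tandem and convergent neighbours, with 95% Wilson intervals. In divergent pairs the share goes from 0 of 279 gaps of up to 250 bases to 94.0% of gaps over 3000 bases, and the intervals of the orientations overlap in the classes between 501 and 1500 bases.

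Other annotated features were rarer. Of 171 tRNA genes 45 lay in 44 divergent gaps, and of 238 long terminal repeats, remnants of retrotransposons, 108 lay in 95 gaps. The gaps also held 13 of 47 rRNA and 7 of 55 snoRNA genes. None of the 11 dg and 16 dh repeats of the centromeres lay wholly inside one.

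Pooled base composition was close between the orientations. The pooled GC content of the divergent gaps in ASM294v3 was 32.1%, against 32.2% in tandem and 31.9% in convergent gaps, and 1260 of 1265 divergent gaps had the same length there. Each motif was searched on both strands. TATAAA was found in the 150 bases before 30% of 2203 genes with a divergent gap of 150 bases or more, before 29.4% of 2581 other genes, those of overlapping divergent pairs included, and before 29.1% of all 5107 genes searched. In 323 genes with a divergent gap under 150 bases the share was 20.1%. Those windows reach into the partner gene, so they do not hold the same kind of sequence. The 2581 other genes were not filtered by distance, so some of their windows reach into a neighbouring gene too. CCAAT was found before 22.6% of the first group and 22.4% of the others, and AACCCT before 5.17% and 5.15%.

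The core histone genes were mostly in divergent pairs. Of 11 listed genes, 10 were in a divergent pair with a gap, against 49.5% of all protein-coding genes. The gap was under 500 bases for 9 of the 10, against 33.8% of all genes in such pairs. In 4 of the gaps both genes were listed, and each of these gaps counts for both. The gap was 132 bases in hhf1-hht1 and 134 in hhf2-hht2, which pair histone H4 with histone H3. It was 201 bases in hht3-hhf3, which pairs the same histones in the other order, and 177 in hta1-htb1, which pairs H2A with H2B. The doubled AACCCT box began 53 bases from the start of hhf1 and ended 69 bases from that of hht1. It was nearer to the right gene in hhf2-hht2, 48 bases away. In hht3-hhf3 it lay 62 bases from hht3 and 129 from hhf3, which has no annotated 5' untranslated part. The 5' untranslated parts were 203 and 97 bases in hhf1-hht1, 161 and 39 in hhf2-hht2, and 259 and 125 in hta1-htb1. The centromeric histone gene cnp1 shared a gap of 437 bases with rpr2, an RNase P subunit gene, and pht1, for the variant H2A.Z, a gap of 1653 bases with shy1. The doubled box was found in the 150 bases before 17 of all 5107 genes searched (0.333%).

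Of 138 cytoplasmic ribosomal protein genes 70 (50.7%) were in a divergent pair with a gap, a share close to the 49.5% of all genes. Of these 70 genes 34 (48.6%) had a gap under 500 bases, against 33.8% of all genes in such pairs. A gap with a listed gene on both sides counts for both genes. The pairs with such a gene on both sides had gaps of 67 bases (rpl701-rps1402), 102 (rps1602-rpl13), 203 (rpl35-rpl902) and 490 bases (rps2-rps20). RefSeq describes rpl701 as an L7-like protein and an RNase MRP subunit. CAGTCAC was found in the 150 bases before 126 of the 138 genes (91.3%) and before 4.09% of all genes, and the longer CAGTCACA before 88 (63.8%) and 2.47%. In rps2-rps20 the minus-strand core lay 40 bases from rps2 and the plus-strand core 48 bases from rps20, so that each gene had a core on its own strand. In rpl35-rpl902 the cores were inverted, the plus-strand one 56 bases from rpl35 and the minus-strand one 80 bases from rpl902. In rps1602-rpl13 a core lay 49 and 48 bases from the genes, near the middle of the gap. The endogenous-site annotation itself lists 62 short promoter features, and 27 of them lay in 20 divergent gaps. In 18 of these gaps 1 partner was a ribosomal protein gene, and the 25 features there stood 39 to 69 bases from its start (median 48), all 25 on its strand.

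**Figure D4:**
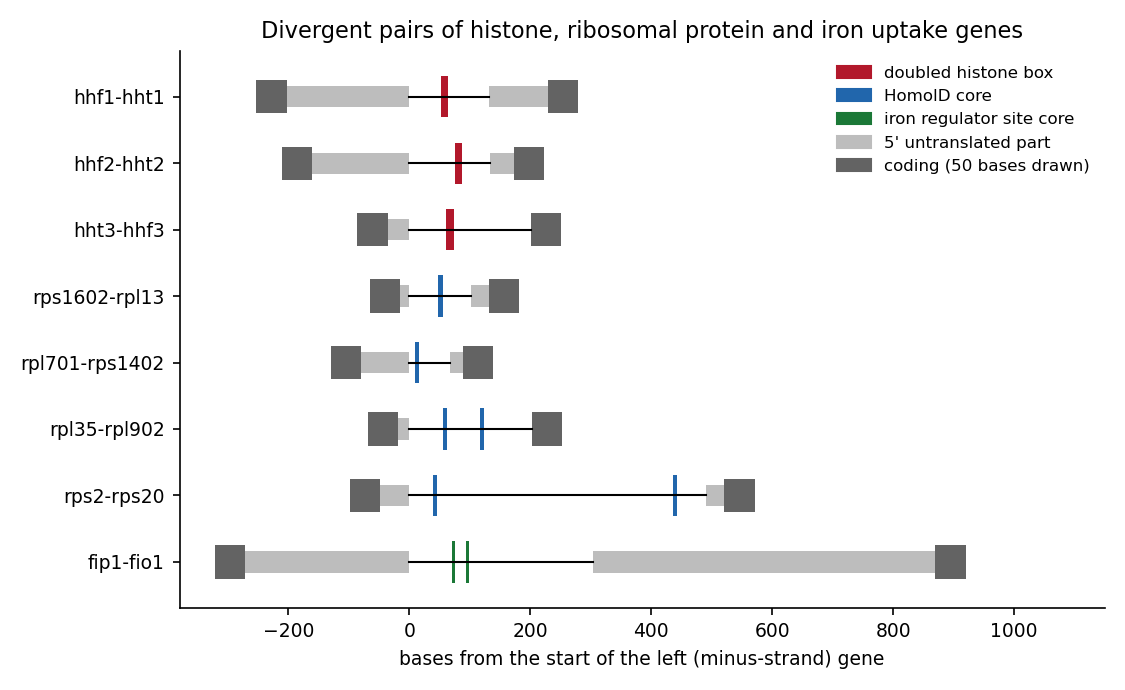
Gaps of 3 histone, 4 ribosomal protein and 1 iron uptake pairs, to scale, in bases from the start of the minus-strand gene (x axis), with 1 pair per line. Black lines are gaps, grey bars 5' untranslated parts, dark bars the first 50 coding bases and coloured bars the motifs: each histone gap drawn has 1 doubled box, and rpl35-rpl902 and rps2-rps20 have 2 HomolD cores each.

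Genes of iron uptake formed 2 divergent pairs with both members listed. The fip1-fio1 gap had 303 bases and separates the iron permease gene from the gene of the multicopper oxidase that works with it. Both genes had long 5' untranslated parts, of 272 and 567 bases. The window below is shown because the gap holds both forms of the GATA core that the iron repressor Fep1 binds, TGATAA and AGATAA, in capitals.
fip1-fio1: TGATAActtttgtccagattggtAGATAAg
It lies at chrI:4234839-4234868 of ASM294v3 (plus strand), and the cores are 71 and 94 bases from the start of fip1. TGATAA was found in the 150 bases before 13.9% of all genes searched and AGATAA before 13.1%. In whole gaps both cores were common. TGATAA was found in 683 and AGATAA in 654 of the 1259 divergent gaps searched, at 1.13 and 0.989 sites per kb. The genes of siderophore synthesis, sib1 and sib2, were separated by 1108 bases, with a single TGATAA, on the minus strand. A single site in a gap of this length is close to the density of TGATAA in all divergent gaps. Of 15 iron genes found, 7 (46.7%) were in a divergent pair with a gap, a share close to the 49.5% of all protein-coding genes.

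The galactose genes gal10, an epimerase, and gal1, the galactokinase, were 762 bases apart, with 1 SPNCRNA gene in the gap, and gal7 had a gap of 290 bases to tgd1. Glucose and galactose genes stood in long gaps: 11 of 20 were in a divergent pair, with a median of 2025 bases, and 1 gap was under 500 bases. The phosphate and thiamine genes had a median of 2494.5 bases in 6 genes. The stress genes had a median of 1383 bases in 8 genes, the shortest being the 64 bases between SPAC22H10.06c and the metallothionein gene zym1. Sexual differentiation genes had a median of 1670 bases in 5 genes, among them mei2, the RNA-binding regulator of meiosis, whose gap of 2422 bases to omt2 held 5 SPNCRNA genes. Proteasome genes had a median of 821 bases in 15 genes, near the 791 bases of all genes in such pairs. In these lists the share in a divergent pair with a gap ran from 38.5% (sexual differentiation) to 66.7% (phosphate and thiamine). Of 18 MBF targets, genes switched on at the start of DNA replication, 8 were in such a pair, with a median of 735.5 bases and the 190 bases of rpl702-pol1 as the shortest. The pair ssb1-mik1, both MBF targets, overlapped by 1 base. Of 14 adenine and uracil synthesis genes found, 7 were in such a pair, with a median of 739 bases. The 92 mug genes, upregulated in meiosis, had a median of 928 bases in 47 genes.

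Genes of the heterochromatin pathway studied in the series were in divergent pairs about as often as others. Of 30 listed genes 14 (46.7%) were in a pair with a gap, with a median of 618 bases, and 5 of these gaps were under 500 bases. The shortest was epe1-apn1, with 111 bases. Epe1 is the JmjC-domain protein that opposes heterochromatin, and none of the motifs searched was found in its gap. The others were tfb4-eri1 with 143 bases, sod22-cul4 with 195, mrpl22-hrr1 with 325 and exo84-rdp1 with 373 bases. They pair a siRNA nuclease, the cullin of the Clr4 complex, an RNAi helicase and the RNA-directed RNA polymerase with genes of other functions. The longest was vht1-clr2, with 3582 bases and 5 SPNCRNA genes. Of the regulators deleted in the strains, swi6, mst2 and set1 were in no divergent pair. The H3K9 methyltransferase gene clr4 met the rule through a nested gene, meu6, which lies wholly inside it. The stretch between their starts was 4250 bases.

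The same pairs looked tighter in the ectopic-site annotation. It had 1400 divergent pairs, of which 1342 were shared, 96.1% of the pairs of the endogenous-site annotation and 95.9% of its own. In the shared pairs the median gap was 718.5 bases in the endogenous-site and 450.5 in the ectopic-site annotation, and the gap was longer in the former in 1201 pairs (89.5%). The share under 500 bases was 39.4% and 52.5%. In 173 pairs the genes overlapped only in the ectopic-site annotation and in 2 pairs only in the other. The distance between the coding starts was the same in 1289 pairs (96.1%), and among these the gap was longer in the endogenous-site annotation in 1151. In 2313 genes of shared pairs with a 5' untranslated part in both files, its median was 114 bases in the endogenous-site and 198 in the ectopic-site annotation, and it was shorter in the former in 1894 genes (81.9%).

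**Figure D5:**
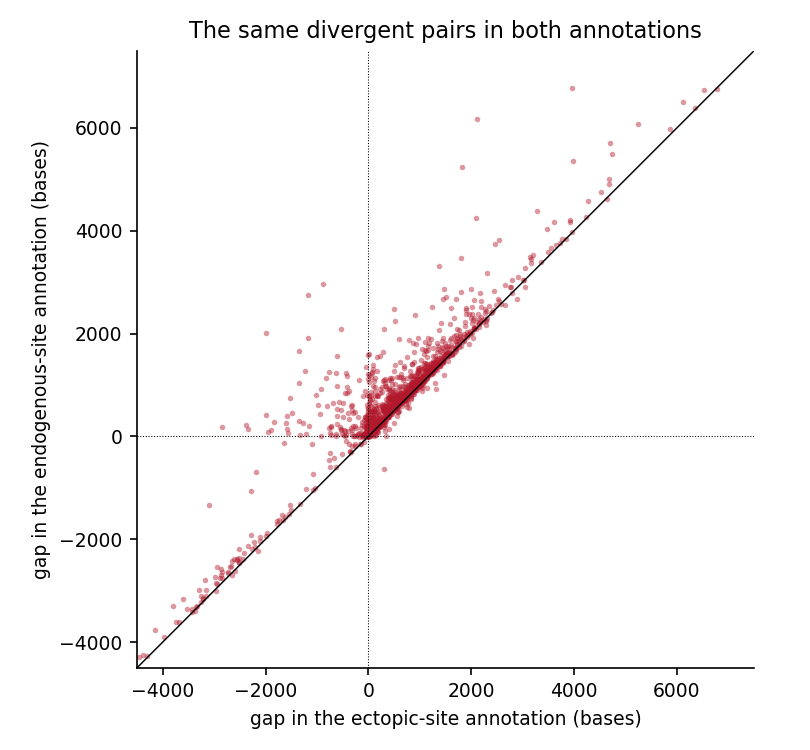
Gap of the shared divergent pairs in the ectopic-site (x axis) and the endogenous-site annotation (y axis), in bases, with a line of equal gaps and dotted lines at 0. Each point is 1 of the 1329 pairs inside the drawn range of -4500 to 7500 bases, out of 1342; most points lie above the line.

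Among pairs with equal coding distance the gap changed most in rps1801-mbx2, a ribosomal protein gene beside a MADS-box factor gene. It had 6175 bases in the endogenous-site and 2110 in the ectopic-site annotation. In SPBP35G2.17-txc1 a gap of 2004 bases stood against an overlap (-2000), and in gti1-loc1 a gap of 2744 bases against -1172. The changes in the other direction were smaller. They were led by aah2-mok11, an alpha-amylase and a glucan synthase gene, where an overlap (-625) stood against a gap of 313 bases. The gap of sxa2-mug65 was 928 against 1306 bases, and that of trm141-tam8 was 15 against 333. Of the histone gaps, hhf1-hht1 had 132 against 146 bases, hta1-htb1 177 against 172, hhf2-hht2 134 against -3 and hht3-hhf3 201 against -1.

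The reporters stood in or beside divergent pairs. At the endogenous site the reporter lay inside the gap of rpp202 and emc3, with 6600 bases between rpp202 and it. The nearest pairs beyond that gap were SPBC23G7.13c-SPBC23G7.14, 1145 bases apart, and npl4-atg2402, 722 bases apart, whose nearer gene starts were 8562 and 23946 bases from the reporter. At the ectopic site, read from the ectopic-site annotation, the nearest pair to the left was mug135-tam14, with a gap of 1443 bases and the start of tam14 404 bases from the reporter. To the right it was SPCC330.07c-alg11, with a gap of 1325 bases and its nearer gene start 5737 bases away. The marker gene ade6, needed for adenine synthesis, formed a divergent pair with bub1, a spindle checkpoint kinase gene, 283 bases apart in the endogenous-site annotation. The ectopic-site annotation has no native ade6 gene, and the pair is absent from it.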

How the data were processed

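The 2 annotations of the whole series were analysed. The authors deposited them as lists of feature positions, with starts and ends in bases counted from 1 and an empty score field in all 58359 rows of the endogenous-site annotation. Per the file headers, Geneious 7.1.5 wrote the ectopic-site annotation. Trimmomatic and BWA appear in the submitters' processing notes with no version, and the build that reads were aligned to is not given in the sources used here. Each annotation is named after the position of its reporter feature, because the labels do not link the files to strains. 

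Genes with an mRNA (ectopic site: a coding sequence) were sorted by start. The gap is the number of bases between the 2 gene starts, below 0 where genes overlap. Of several mRNAs (8 genes) the first by identifier was used. An SPNCRNA gene counted as inside when it lay wholly in the gap. Genes were matched by identifier to ASM294v3 from RefSeq (5110 of 5113), and the sequence of a gap was read there only where it had the same length. The 150 bases before a gene were read at the gene start of ASM294v3, whatever the gap. The sequence of 1 gap is not reported here, and this gap and the windows of its 2 genes were left out of every motif search. No coordinate was converted. Ribosomal protein and mug genes were chosen by name, leaving out 3 RNase P or MRP subunits named rpp. The named pairs were the extremes of each measure and every pair with both genes in a list, plus examples. The members and lists were chosen with earlier results of these data known. No test was made, because there are no per-library values. The pairing and motif searches were tested on simulated data. Python 3.11.15, numpy 2.4.6, pandas 2.3.3, scipy 1.17.1 and matplotlib 3.10.9 were used. Another annotation, other neighbours, other gap ends and other limits were tried as alternatives.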

Additional observations from a re-analysis of the deposited data

How the results depend on the processing

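The ectopic-site alternative also took genes by a coding sequence in place of an mRNA. Of all settings, 22 of 44 alternative values moved by more than the interval of the value (1.5 times for the number of pairs). Lengths, shares and counts carry no test and no direction here. In the ectopic-site annotation the median gap was 449.5 bases, the share under 500 bases 52.5%, the median 5' untranslated part 199 bases and the share of gaps with an SPNCRNA gene 15.4%. All values from the ASM294v3 annotation, and those without the 49 pairs within 100 kb of a chromosome end or over a centromere, stayed within the intervals. With neighbours taken among all genes, non-coding ones included, 333 pairs remained by construction, with a median gap of 100 bases, 82.0% under 500 bases, a median 5' untranslated part of 101 bases and 0% with an SPNCRNA gene. Without nested pairs the median gap was 755 bases and 36.0% were under 500 bases. Between coding starts the median was 968 bases and 26.0% were under 500 bases. A limit of 300 bases gave 31.8% and a limit of 1000 bases 65.9%. Counting absent 5' untranslated parts as 0 gave a median of 87 bases. The share with an SPNCRNA gene was 72.6% with any overlap and 34.0% over all pairs. As added after seeing the data, pairs with coding order kept had a median gap of 765.5 bases and 35.3% under 500 bases, and genes sorted by 5' ends gave 794 bases and 33.4%. The causes of these moves were not tested beyond what each setting changes by construction. No paired analysis was possible because every value comes from an annotation and none from a library. Read depth is unknown and bears on none of these values.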
